A study of Rattus norvegicus with 4 samples.

Results

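The interferon-induced genes described here are Ifitm1, Ifitm2, Ifitm3, Bst2, Isg15, Irf7 and Mx1, which were 7 of the 32623 genes counted in rat trigeminal nerve tissue. They were chosen by gene symbol, and no measured value decided which genes belong to the set. Tissue of wild-type adult male Sprague-Dawley rats was laid on Visium slides, on which barcoded capture spots record the RNA of the few cells above them. TN1, TN2 and TN3 each held tissue of 1 rat with trigeminal neuralgia (TN), modelled by mechanical compression of the nerve on a single side. The tissue came from that side and included the nerve root, the semilunar ganglion and the first stretch of its branches. HC, the healthy control, was 1 capture area with tissue of 2 rats, which the barcodes do not tell apart. The series description takes HC tissue from the healthy side of 2 of the 3 TN rats, whereas the methods describe sham-operated controls, and the time from compression to sampling is not given in the sources used here. HC therefore counted as 1 sample with no spread of its own, and TN against HC cannot be told apart from 1 capture area against the others. There was 1 area per rat in TN, so no technical repeat was available.

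TN1, TN2, TN3 and HC held 1587, 1256, 1917 and 2013 spots under tissue, with 23546025, 38769935, 32239597 and 41335930 unique molecular identifiers (UMIs, each counting 1 captured RNA molecule). The spots were grouped into regions by their expression, with the members and other interferon genes left out of the grouping, and each region was named after its leading marker list. The ganglion region, led by sensory neuron genes such as Nefl, Tac1 and Scn11a, held 368, 393, 431 and 1047 spots. TN2 and HC ganglion spots lay largely in different clusters. Cluster 4, led by Csrp3, Gal and Reg3b, held 324 of the 393 TN2 ganglion spots, 54 of the 368 in TN1, 69 of the 431 in TN3 and no HC spot. All HC ganglion spots lay in clusters 6 and 8, as did the other TN1 and TN3 ganglion spots. The central myelin region held 279, 125, 227 and 434 spots. The connective tissue region held 461 spots in TN2 and 527 in TN3, against 2 in TN1 and 0 in HC. Most of its spots, 350 in TN2 and 477 in TN3, lay in cluster 1. Peripheral myelin genes were the next list in that cluster, so the region was not connective tissue alone. A spot holds several cells, so more cells of a type and more RNA per cell cannot be told apart.

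Interferons are secreted signals that cells release on sensing viral or misplaced nucleic acids. Type I interferon binds the Ifnar1 and Ifnar2 receptor, whose Jak kinases activate Stat2, which joins Irf9 at a DNA motif called the interferon-stimulated response element (ISRE). Interferon gamma has a receptor of its own and acts through another motif, the gamma-activated sequence (GAS). The 3 Ifitm proteins sit in cell and endosome membranes and hinder the entry of enveloped viruses, and they also occur without interferon in many cells, fibroblasts and endothelium among them. Bst2, or tetherin, holds budding virus particles at the cell surface. Mx1 is a GTPase that blocks virus replication in the nucleus. Isg15 is a ubiquitin-like protein that is attached to other proteins, and Irf7 is the transcription factor that amplifies interferon production.

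Stretches before the gene starts are shown where they carry the core of the ISRE, the motif through which type I interferon acts. RefSeq promoters of the rat assembly GRCr8 were found for 5 members, and Ifitm1 and Isg15 had no entry. The core, GAAANNGAAA, stands in capitals, read on both strands over the 250 bases before the start. Each sequence runs 5′ to 3′ along the gene's strand, which is the minus strand in these 4 cases.

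Ifitm2, chr1:205482349-205482406: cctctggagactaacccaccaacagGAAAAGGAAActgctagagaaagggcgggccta

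Ifitm3, chr1:205541768-205541827: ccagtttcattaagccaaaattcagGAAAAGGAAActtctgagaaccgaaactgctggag

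Bst2, chr16:18255058-18255123: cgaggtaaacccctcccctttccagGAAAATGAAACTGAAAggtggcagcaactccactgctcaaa

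Irf7, chr1:205800058-205800117: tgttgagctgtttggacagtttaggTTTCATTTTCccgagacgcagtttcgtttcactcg

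Ifitm2 and Ifitm3 carried the same 10 letters, starting 33 and 44 bases before the gene start. Bst2 held 2 overlapping matches, at 131 and 125 bases, which share 4 letters. The Irf7 match lay at 69 bases on the other strand and so reads as TTTCATTTTC. Mx1 had no match in this window. The ISRE core was present in 4 of the 5 member promoters, in 902 of all 27457 promoters (3.29%), and in 19 of 34 promoters of other type I interferon-induced genes (55.9%). The GAS letters TTCNNNGAA were present in 2 of the 5, those of Ifitm3 and Bst2, and in 7.52% of all promoters. These matches describe the letters in the window and not the binding of a factor. In the RefSeq gene order of chromosome 1, Ifitm5, Ifitm2, Ifitm1, Ifitm3 and Ifitm6 are consecutive.

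In the ganglion, Ifitm1 and Ifitm3 had higher values in each TN area than in HC, with log2 fold changes of 1.67 and 0.91, but neither difference passed the adjusted threshold. Levels are given as CPM, that is, counts scaled to a common total of UMIs, after TMM scaling, which corrects each area for its depth and composition. Ifitm1 measured 60.4, 266 and 134 CPM in TN1, TN2 and TN3 (153 ± 104, mean ± SD, n = 3) against 48.4 CPM in HC. The HC value lay below all 3, and TN1 was much nearer to it than TN2 was. The standard error of its log2 fold change was 0.82 (adjusted p = 0.534, edgeR's quasi-likelihood test). Ifitm3 measured 110, 282 and 163 CPM in the TN areas (185 ± 88.0, n = 3) and 98.3 in HC (standard error 0.53, adjusted p = 0.573). Ifitm2 measured 102, 294 and 196 CPM in the TN areas and 156 in HC. The Ifitm2 groups overlapped, since TN1 fell below HC, and the log2 fold change was 0.34 (standard error 0.55, adjusted p = 0.837). Ifitm2 and Ifitm3 are close paralogs, so reads that match both could have been lost or given to either, and the split between them is uncertain.

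Of the other 4 members, TN1 held the highest value for 3, and HC lay below all TN areas for Irf7 alone. Isg15 measured 29.7, 10.3 and 11.2 CPM in TN1, TN2 and TN3 and 11.4 in HC, so that only TN1 stood above it (0.59 on the log2 scale, standard error 0.66, adjusted p = 0.760). Mx1 measured 25.3, 15.1 and 13.1 CPM in the TN areas and 15.3 in HC, a log2 difference of 0.22 (standard error 0.41, adjusted p = 0.862). Irf7 measured 11.3, 5.36 and 4.81 CPM in the TN areas and 4.09 in HC. All 3 Irf7 values lay above HC, TN3 by the least (log2 fold change 0.81, standard error 0.58, adjusted p = 0.635). Bst2 measured 8.76, 14.8 and 6.44 CPM in the TN areas against 7.49 in HC, and its groups overlapped (log2 fold change 0.43, adjusted p = 0.768).

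In the ganglion edgeR called 0 of 7 members and 0 of 13082 genes (0%) at an adjusted p under 0.05, while 1286 genes (9.83%) but no member passed 0.05 without adjustment. With DESeq2 there were 118 genes (0.902%) and no member among the calls. For 3 of 7 members, Ifitm1, Ifitm3 and Irf7, all 3 TN areas lay above HC, while this held for 28.4% of all genes tested. The median log2 fold change of the members was 0.59, against 0.03 over all genes tested. The fit assumes that HC varies as the TN areas do and has 2 residual degrees of freedom. For a single value, 3 areas against 1 cannot give a one-sided exact permutation p below 0.25.

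The calls depended on TN1, and the p-values without it take their spread between rats from TN2 and TN3 alone. Without it, 1 residual degree of freedom was left and edgeR called 853 of 12985 ganglion genes (6.57%, with 4.15% higher in TN), among them Ifitm1 (log2 fold change 2.04, adjusted p = 0.00702) and Ifitm3 (1.18, adjusted p = 0.0386). Over all spots without TN1 the calls were 2171 of 14692 genes (14.8%, with 8.07% higher in TN), including Ifitm1 (3.04, adjusted p = 0.00942), Ifitm2 (1.34, adjusted p = 0.0207) and Ifitm3 (1.71, adjusted p = 0.0174). In central myelin they were 430 of 8446 genes (5.09%, with 2.97% higher in TN), including Ifitm1 (2.85), Ifitm2 (1.07) and Ifitm3 (0.85). Isg15, Irf7, Mx1 and Bst2 were not called in any of these fits.

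**Figure D1:**
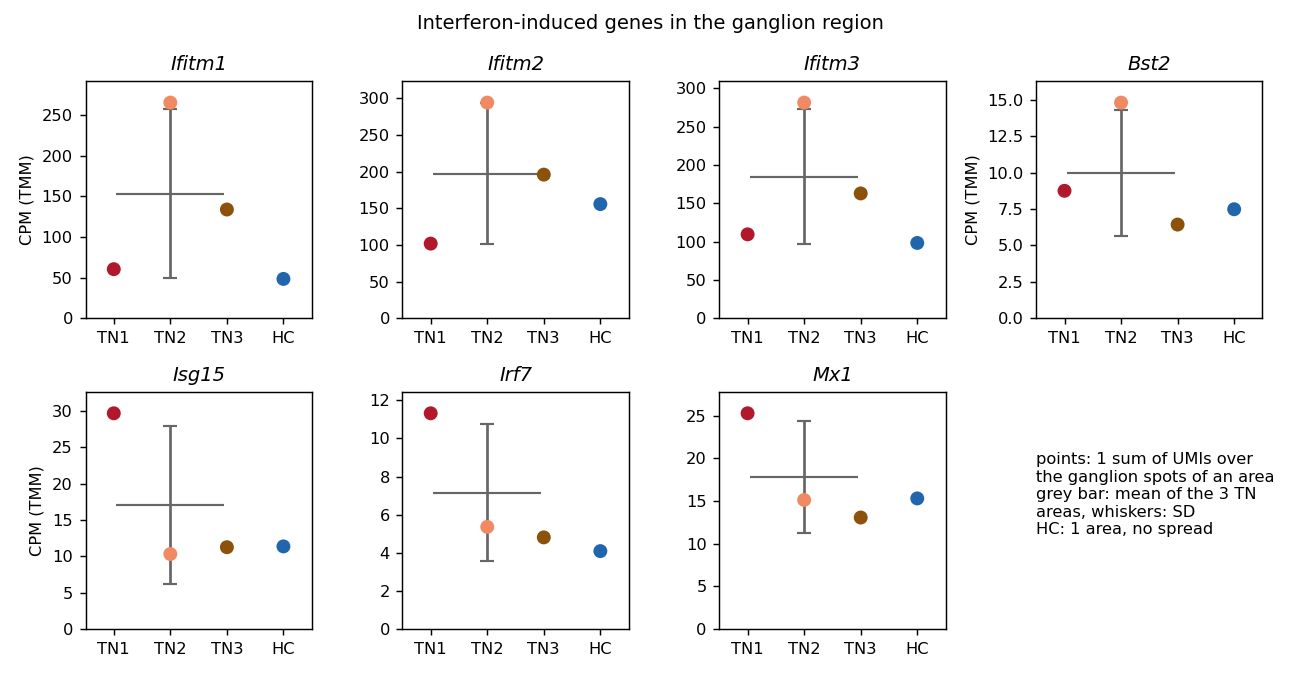
Level of each member in the ganglion region, in CPM after TMM scaling on linear axes from 0, with 1 point per capture area, a grey bar at the mean of the 3 TN areas and whiskers of 1 SD. Ifitm1, Ifitm3 and Irf7 have all TN points above HC, whereas Isg15 and Mx1 have only TN1 above it.

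The Ifitm1 difference was also seen within ganglion clusters that hold spots of all 4 areas. In cluster 6, where sensory neuron and peripheral myelin genes lead, Ifitm1 measured 69.8, 210 and 140 CPM in TN1, TN2 and TN3 and 50.01 in HC. In cluster 8, where sensory neuron genes lead, it measured 51.0, 190 and 99.7 CPM against 45.9 in HC. The log2 fold change was 1.38 within cluster 6 (adjusted p = 0.549, edgeR) and 1.22 within cluster 8 (adjusted p = 0.592), so TN1 again lay close to HC and TN2 far above it. Ifitm1 had at least 1 UMI in 70.1%, 98.7%, 78.2% and 61.0% of the TN1, TN2, TN3 and HC ganglion spots. After each spot was thinned to 2000 UMIs these shares were 10.4%, 38.4%, 24.7% and 8.55%, over the 365, 388, 365 and 1041 spots deep enough, while the thinned share was 3.06% in the central neuron spots of TN1 and 13.2% in those of TN2.

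Several marker lists of other cells were also higher in TN than in HC in the ganglion, though not in every area. Of all genes tested there, 28.4% had all 3 TN areas above HC, after TMM scaling. The 6 connective tissue markers summed to 1273, 3360 and 3028 CPM in TN1, TN2 and TN3 and 1325 in HC. The TN1 sum lay below HC, although 5 of the 6 markers lay above HC in all 3 TN areas. The 8 macrophage markers summed to 319, 666 and 469 CPM against 172 in HC, with 7 of 8 above HC in all 3 areas. The 7 T and NK cell markers summed to 4.67, 19.3 and 9.52 CPM against 1.44, with Klrb1 at 0 UMIs in every area. The 7 repair Schwann cell markers summed to 575, 725 and 586 CPM against 563, with 4 of 7 above HC in all 3 areas and 0 below. No marker of the connective tissue or macrophage list was at 0. The part of these cells in the Ifitm result was not tested. Endothelial markers summed to between 176 and 195 CPM in TN and to 169.7 in HC, and the neutrophil list was lower in TN, at 9.75 to 18.1 CPM against 92.7.

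By region, Ifitm1 was highest in connective tissue, at 579.6 CPM in TN2 and 611 in TN3, without TMM scaling. Peripheral myelin measured 120.4 CPM in TN1 and 275 in TN3, and the astrocyte region 200.1 in TN2 and 250.4 in TN3. The lowest levels were in central neuron spots, at 11.8 in TN1 and 71.4 in TN2, and in central myelin, at 13.6, 79.6, 110.1 and 12.8 in TN1, TN2, TN3 and HC. Within TN1 and within TN2 these were the lowest and the next. The same order of extremes held for Ifitm2, with 575 and 528 CPM in the connective tissue of TN2 and TN3 and 46.8 and 107 in the central neuron spots of TN1 and TN2. Ifitm3 was at 509.9 and 419 CPM in connective tissue and at 38.5 and 96.5 in central neuron spots. In each of the 5 regions with at least 20 spots in TN1, Ifitm1 was lower in TN1 than in the other TN areas with that region. Over spots of 1 area, Ifitm1 and the summed connective tissue markers correlated at r = 0.48, 0.60, 0.51 and 0.11 in TN1, TN2, TN3 and HC (1587, 1256, 1917 and 2013 spots, scaled to each spot's depth, within 1 library).

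The other members had different regional orders. Isg15 was highest in the TN1 ganglion at 29.96 CPM. It reached 19.1 and 20.2 CPM in the astrocyte region of TN2 and TN3, 17.3 and 16.6 in their connective tissue, and 5.47 and 5.17 in the central neuron spots of TN1 and TN2. Mx1 was also highest in the TN1 ganglion, at 25.5 CPM. It reached 24.4 and 21.0 CPM in the astrocyte region of TN2 and TN3, and 3.62 and 4.30 in their central myelin. Bst2 was highest in the connective tissue of TN2 at 24.3 CPM and in the peripheral myelin of TN1 at 24.0. Irf7 was highest in the blood and bone region of TN1 at 12.7 CPM, which was 9 UMIs, and measured 11.98 and 11.7 in the peripheral myelin of TN1 and TN3 and 11.4 in the TN1 ganglion. Over the 20 region-by-area sums, pairs of Ifitm genes correlated at 0.95 to 0.963 on log2(CPM + 5), Isg15 and Mx1 at 0.72, and Ifitm1 and Mx1 at 0.32. These sums share libraries and regions, and the values are descriptions.

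**Figure D2:**
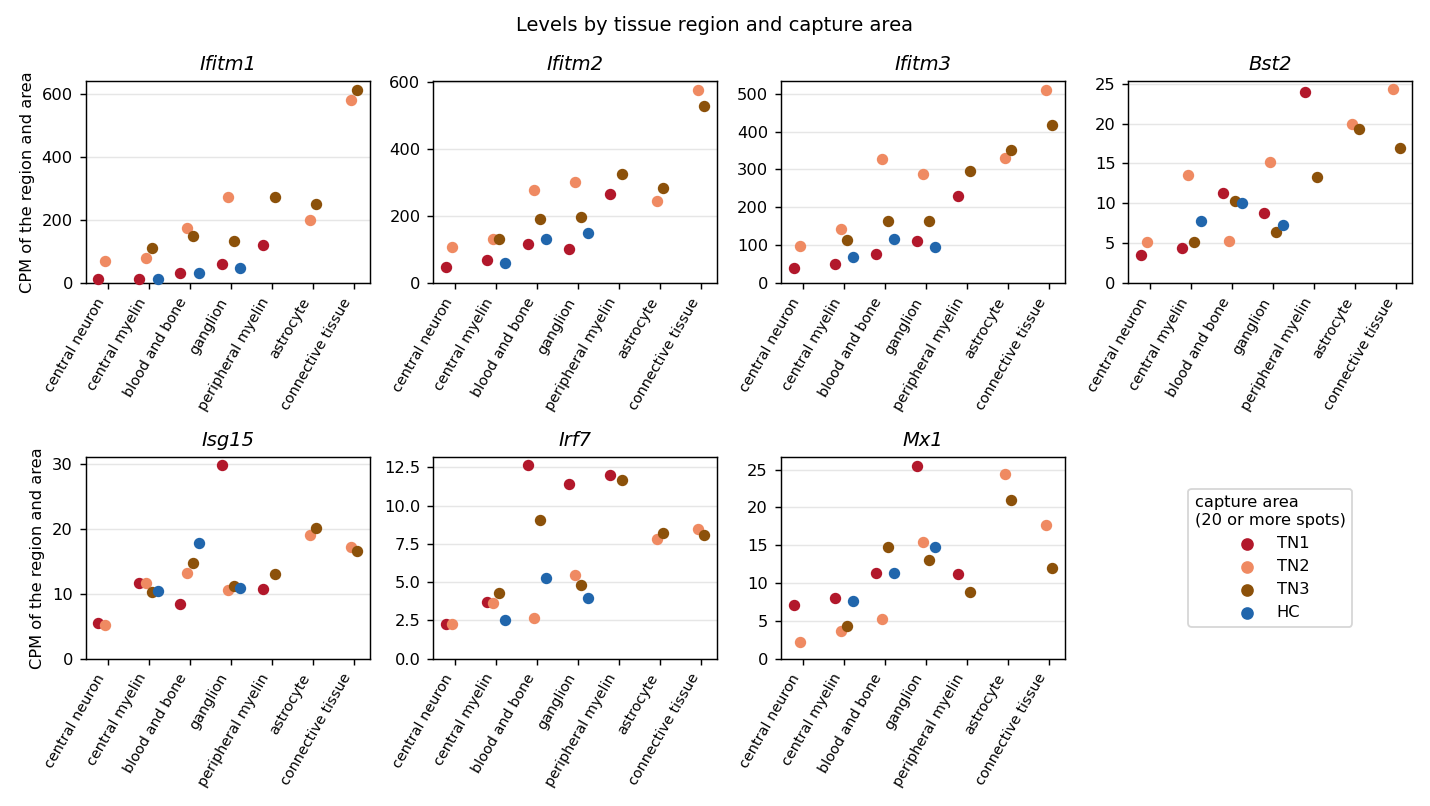
Level of each member by region and capture area, in CPM without TMM scaling on linear axes from 0, for region and area pairs with at least 20 spots. The Ifitm genes peak in connective tissue and are low in central neuron and central myelin spots, whereas Isg15 peaks in the TN1 ganglion.

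Among genes at a mean of at least 20 CPM, those most like the summed Ifitm genes over the 20 sums were Flna, an actin cross-linker (r = 0.983), C1r, a complement protease (0.976), Efnb1, an ephrin (0.974), Arpc1b, an actin-branching subunit (0.974), and Calu, a calcium-binding protein of the secretory pathway (0.972). For the sum of Bst2, Isg15, Irf7 and Mx1 they were RT1-A1, a class I antigen-presenting molecule (0.825), Erap1, a peptide trimmer for class I (0.824), Rps4x-ps9 (0.805), Cd48, a leukocyte surface protein (0.802), and Lrp10 (0.799).

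The share of Ifitm UMIs that came from Ifitm1 was higher in each TN ganglion than in HC. It was 22.2% in TN1 (95% exact binomial interval 20.8 to 23.7, counting error only), 31.6% in TN2 (30.8 to 32.3) and 27.2% in TN3 (26.0 to 28.4), with an interval of 15.3 to 16.8% in HC. The 4 intervals do not overlap, but they leave out the spread between rats. In central myelin the share was 10.4% in TN1 (6.62 to 15.3), 22.4% in TN2, 30.9% in TN3 and 8.94% in HC (6.98 to 11.2), so TN1 and HC were not distinguishable at this depth. Connective tissue reached 34.8% in TN2 and 39.2% in TN3. Such a share is free of an area's depth and does not change with how reads are split between Ifitm2 and Ifitm3.

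**Figure D3:**
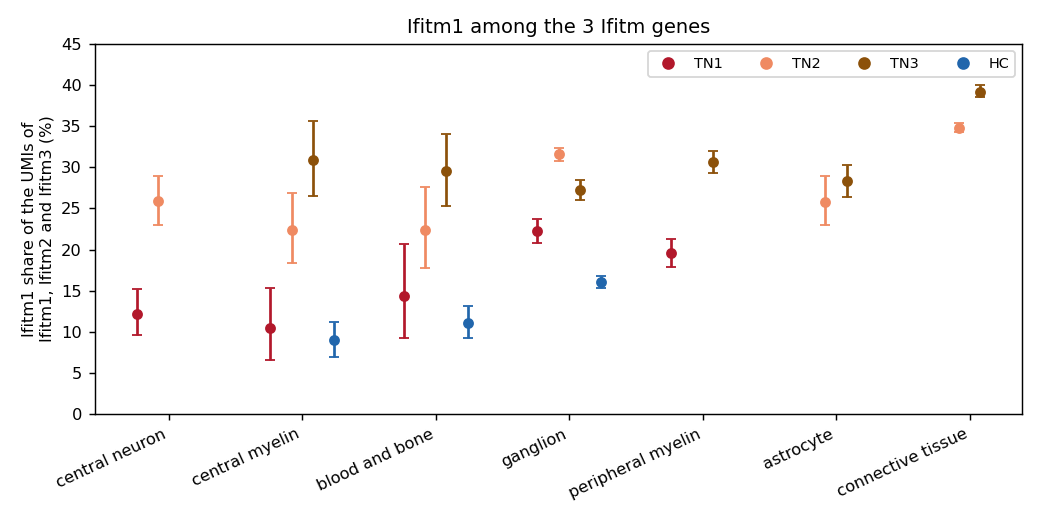
Share of Ifitm1 among the UMIs of Ifitm1, Ifitm2 and Ifitm3 by region and capture area, in percent, with 95% exact binomial intervals of counting error only. TN2 and TN3 lie above HC in each region that they share with it, and TN1 lies above HC in the ganglion with no overlap of intervals.

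Over all spots, which mix the regions in unequal shares, 5 of 7 members had all 3 TN areas above HC, against 28.7% of all genes tested. Ifitm1 measured 53.5, 363 and 339.9 CPM in TN1, TN2 and TN3 and 42.6 in HC, a log2 difference of 2.56 (standard error 1.19, adjusted p = 0.559). TN2 and TN3 were the areas with more than 2 connective tissue spots. Irf7 measured 8.75, 6.24 and 7.45 CPM against 4.06 (log2 fold change 0.88, standard error 0.38, adjusted p = 0.556). Bst2 (0.72), Isg15 (0.35) and Ifitm3 (1.35) were the others of the 5. Without 8 TN1 spots described below, Isg15 in TN1 measured 11.3 CPM against 11.5 in HC, without TMM scaling. edgeR called 0 of 14902 genes (0%) and no member, while 1271 genes (8.53%) but no member passed 0.05 without adjustment. DESeq2 gave 158 calls (1.06%), none of them a member.

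In central myelin, edgeR called 0 of 9125 genes (0%) and none of the 6 members tested, while 294 genes (3.22%), Ifitm1 among them, passed 0.05 without adjustment. DESeq2 called 4 genes (0.0438%) and no member. Ifitm1 measured 13.4, 78.4, 113 and 13.4 CPM in TN1, TN2, TN3 and HC, so TN1 equalled HC to 3 digits (log2 fold change 2.32, standard error 0.96, adjusted p = 0.9999). Ifitm2 measured 66.2, 129, 135 and 63.4 CPM (log2 fold change 0.79, standard error 0.40). Ifitm1 and Ifitm2 were the 2 of 6 members with all 3 TN areas above HC, against 20.7% of all genes. For Ifitm1 this count rests on a TN1 value above HC only beyond the 3 digits shown, from 22 UMIs in TN1. Isg15 measured 11.5, 11.6, 10.6 and 10.9 CPM. Irf7 had 13 UMIs or fewer in each area and was not tested.

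In the blood and bone region, Ifitm1 measured 33.3, 164, 159.8 and 31.3 CPM in the same order, a log2 difference of 1.91 (standard error 0.70, adjusted p = 0.9998), and it was the 1 of 6 members tested with all 3 TN areas above HC, against 21.8% of genes. Isg15 was below HC in all 3 TN areas, at 8.70, 12.4 and 15.98 CPM against 18.2, as were 20.7% of genes. These values rested on only 6, 5 and 13 Isg15 UMIs in TN1, TN2 and TN3 and 71 in HC. edgeR called 3 of 8305 genes there (0.0361%) and no member, while 341 genes (4.11%), Ifitm1 among them, passed 0.05 without adjustment. DESeq2 gave 8 calls (0.0963%), none of them a member.

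Whether TN against HC differed between ganglion and central myelin was tested as an interaction by edgeR, in which each area served as its own block. No member passed, and 3 of 13197 genes did (0.0227%). The log2 difference, ganglion minus central myelin, was −0.62 for Ifitm1 (standard error 0.55, adjusted p = 0.930), −0.53 for Ifitm2 (standard error 0.29, adjusted p = 0.922) and 0.77 for Mx1 (standard error 0.42, adjusted p = 0.922).

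When the areas were integrated before clustering, every area held at least 20 peripheral myelin, connective tissue and astrocyte spots. In that peripheral myelin region Ifitm1 measured 127, 364, 359 and 45.4 CPM in TN1, TN2, TN3 and HC, a log2 difference of 2.64 (standard error 0.75, adjusted p = 0.126). edgeR called 333 of 11227 genes there (2.97%) and no member, and all 3 TN areas lay above HC for 35.6% of genes. Ifitm3 measured 237, 402, 357 and 125 CPM (log2 fold change 1.41, adjusted p = 0.120), and Ifitm2 278, 399, 376 and 177 (0.99, adjusted p = 0.152). All 3 TN areas also lay above HC for Bst2 (24.4, 20.8, 14.5 and 13.5 CPM), Isg15 (9.05, 18.7, 12.6 and 7.85) and Irf7 (12.5, 9.86, 11.5 and 6.17). Their log2 fold changes were 0.55, 0.79 and 0.86 (adjusted p = 0.468, 0.428 and 0.263). Mx1 overlapped, at 10.4, 19.9, 8.6 and 14.0 CPM. In the integrated connective tissue, with only 24 TN1 and 20 HC spots, Ifitm1 measured 139, 809, 756 and 64.1 CPM (3.17 on the log2 scale, adjusted p = 0.282), where all 3 TN areas lay above HC for 39.8% of genes. Isg15 ran the other way there, at 16.2, 17.2 and 20.8 CPM in TN and 51.3 in HC (−1.46, adjusted p = 0.227). In the integrated astrocyte region, with 55, 68, 159 and 100 spots, Ifitm1 measured 38.8, 198, 217 and 14.3 CPM in TN1, TN2, TN3 and HC, a log2 difference of 3.49 (standard error 0.88, adjusted p = 0.300). There all 3 TN areas lay above HC for 26.5% of genes.

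Much of the Isg15 in the TN1 ganglion came from a few spots. The 1% of ganglion spots with most Isg15, which were 4, 4, 5 and 11 spots in TN1, TN2, TN3 and HC, held 38.4%, 9.83%, 11.3% and 10.0% of its UMIs there. A spot was set apart here if it held at least 10 Isg15 UMIs, a threshold chosen after the values were seen. TN1 had 8 such spots of 1587 (0.504%), all in the ganglion, 4 in cluster 6 and 4 in cluster 8. They held 60, 48, 15, 15, 15, 14, 13 and 12 Isg15 UMIs, while no other TN1 spot held more than 6. TN2 had 3 such spots and TN3 had 1, all in connective tissue. HC had 0 of 2013, which allows a share of up to 0.149% if spots of this area are counted as independent. The highest HC spot held 5. The 8 spots were 8 of 368 in the TN1 ganglion, but they held 53.5% of its Isg15 UMIs, 41.6% of its Irf7 UMIs, 30.7% of its Mx1 UMIs and 9.43% of its Bst2 UMIs. Without them, the TN1 ganglion fell from 29.96 to 14.4 CPM for Isg15, from 11.4 to 6.90 for Irf7 and from 25.5 to 18.3 for Mx1, against 10.9, 3.94 and 14.75 in HC. In the ganglion TN1 thus remained above HC for these 3 genes. Over all spots, TN1 without them measured 11.3 CPM for Isg15 against 11.5 in HC. Mx1 was at 13.52 against 13.47 and Irf7 at 6.52 against 3.90. The spots left out of TN1 were chosen for their high values, and they were the only such spots in a ganglion.

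**Figure D4:**
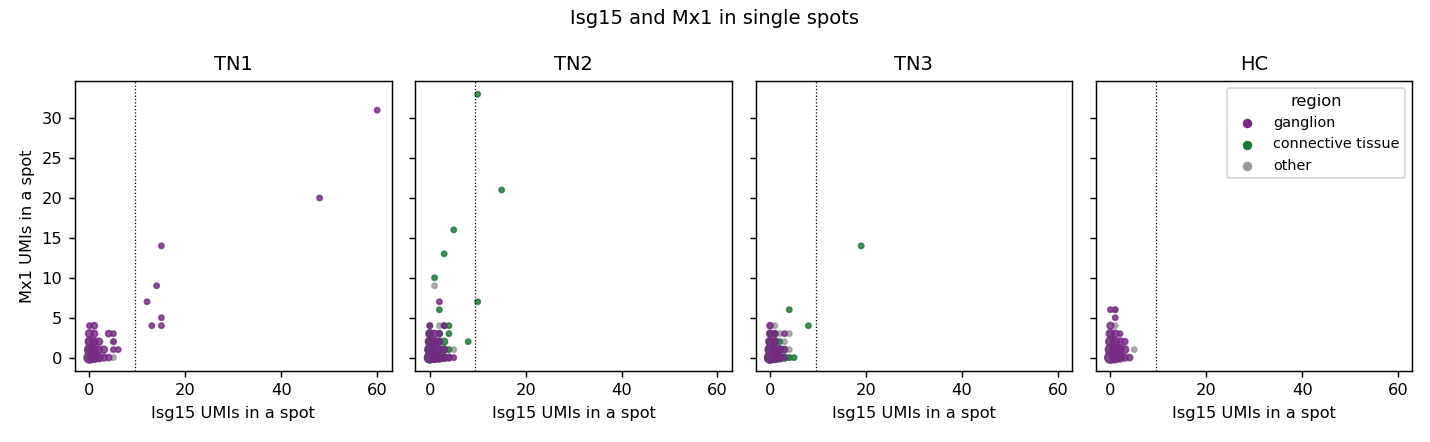
Isg15 and Mx1 UMIs of single spots, with 1 panel per capture area, region shown by colour, larger points where spots coincide and a dotted line before 10 Isg15 UMIs. In TN1 the 8 spots with at least 10 Isg15 UMIs lie in the ganglion and reach 60 Isg15 and 31 Mx1 UMIs, while no HC spot exceeds 5 Isg15 UMIs.

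The 8 spots were chosen for Isg15, so their other genes are described and not tested. Levels are the summed UMIs of the 8 spots, as CPM, beside those of the other 360 TN1 ganglion spots. Irf7 measured 145 CPM against 6.90, Mx1 239.7 against 18.3, and Ifitm3 362 against 102. Bst2 measured 25.5 against 8.28. Ifitm1 (86.7 against 60.1) and Ifitm2 (115 against 102) differed least. Of TN1's 10 spots with most Mx1, 8 were among them, and 7 of the 10 with most Irf7.

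Several further genes, named after their values were seen, led the 8 spots. Cxcl10, a chemokine that draws T cells, measured 696 CPM against 7.16 and was found in each of the 8, with 137, 53, 7, 19, 10, 15, 12 and 20 UMIs. Rsad2, the antiviral enzyme viperin, measured 263 against 6.47, Ifit3 112 against 1.47, and Usp18, which removes Isg15 from proteins and damps the receptor, 143 against 7.42. Slpi, a secreted protease inhibitor, measured 84.2 against 1.55. The ISRE core was also present before the starts of Cxcl10, Rsad2 and Ifit3, shown here because these genes stood with Isg15 in the same spots (GRCr8, RefSeq, plus strand for Cxcl10 and Ifit3 and minus strand for Rsad2, each along its gene's strand, core or its other strand in capitals).

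Cxcl10, chr14:15988816-15988857: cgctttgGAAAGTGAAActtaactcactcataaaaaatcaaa

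Rsad2, chr6:48788233-48788292: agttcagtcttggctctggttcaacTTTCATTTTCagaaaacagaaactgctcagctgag

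Ifit3, chr1:241527257-241527316: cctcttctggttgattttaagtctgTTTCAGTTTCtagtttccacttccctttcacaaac

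Of the other type I interferon-induced genes, 23 of 39 were at least 2-fold higher in the 8 spots, after 5 CPM were added to both levels. The same held for 11 of 20 interferon gamma-induced genes, 3 of 9 signalling genes, 4 of 13 nucleic acid sensors, 2 of 5 negative regulators, 0 of 6 receptors and 215 of all 16088 genes (1.34%). It also held for 5 of the 7 members, Isg15 among them, for which the spots were chosen. Stat2 measured 96.9 CPM against 32.7, whereas the receptor gene Ifngr1 measured 86.7 against 82.0. Not every interferon-induced gene was higher, since Ifi27 measured 1571 against 1329 and Ifi27l2b 936 against 976.

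The 8 spots had a median of 56590 UMIs, against 29390 in the other TN1 ganglion spots and 26430 in the HC ganglion spots. The threshold on Isg15 UMIs was not scaled to depth. Their sensory neuron markers summed to 17110 CPM against 19680, and satellite glia markers to 1522 against 1826, so they resembled other ganglion spots in this respect. Macrophage markers summed to 439 CPM against 315 (6 of 8 higher, Cd163 at 0) and endothelial markers to 286 against 173 (6 of 7 higher). T and NK cell markers summed to 48.5 CPM against 3.19, which were 19 UMIs. Among them were 6 of Cd8a, 4 of Cd3e and 4 of Cd3d, with Cd2 and Klrb1 at 0. B cell markers were at 0 UMIs. Plasmacytoid dendritic cell markers summed to 48.5 against 26.8, but all 19 UMIs were of Il3ra, with Siglech, Ccr9 and Cox6a2 at 0. The part of these cells in the Isg15 signal was not tested, and spot positions were not used here, so whether the 8 spots adjoin is not known.

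**Figure D5:**
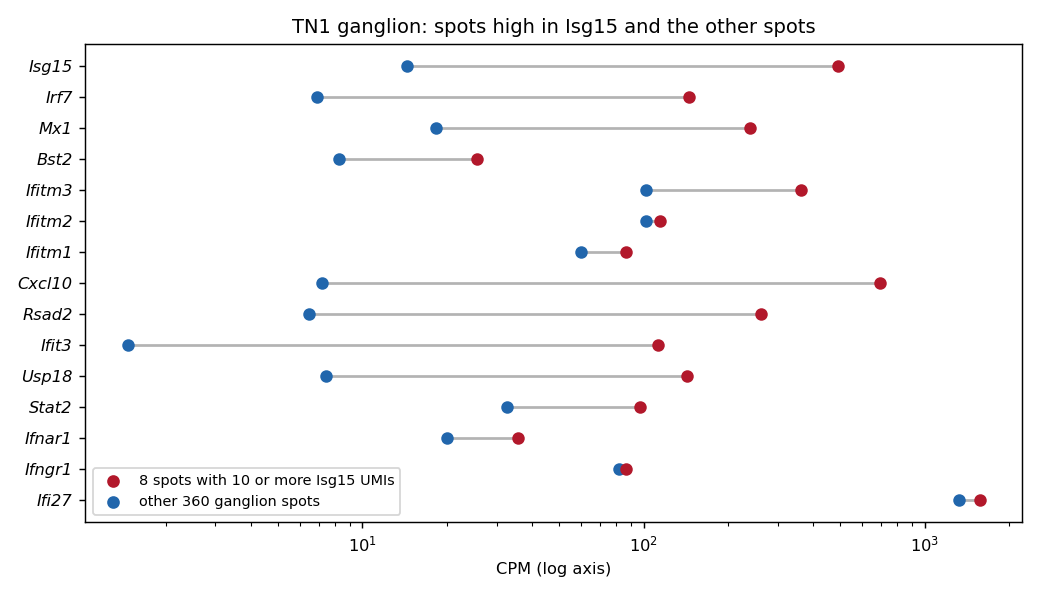
Levels of members and other interferon genes in the 8 TN1 ganglion spots with at least 10 Isg15 UMIs and in the other 360 TN1 ganglion spots, in CPM on a log axis. Cxcl10, at 696 against 7.16 CPM, and Ifit3, at 112 against 1.47, lie farthest apart, and Ifitm1 and Ifitm2 differ least among the members.

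The spots with most Mx1 in TN2 held little Cxcl10 and no Rsad2. The 5 highest held 33, 21, 16, 13 and 10 Mx1 UMIs and lay in connective tissue. They had 0 or 1 Cxcl10 UMIs and 0 Rsad2 UMIs. Mx2, a related GTPase, had 16, 18, 16, 8 and 2 UMIs in them, and from 6 to 24 in the 8 TN1 spots, so it did not set them apart. The TN2 spot with 15 Isg15 UMIs also held 12 Usp18 and 7 Ifit2 UMIs, beside 5 to 11 Usp18 and 1 to 29 Ifit2 UMIs in the 8 TN1 spots. The TN3 spot with 19 Isg15 UMIs held 14 Mx1, 11 Cxcl10 and 2 Rsad2 UMIs.

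Interferons themselves were near absent from the counts. Of 10 interferon genes found, 9 had 0 UMIs in all 4 areas, Ifnb1 and Ifng included, and Ifnk had 2 UMIs in TN2, 2 in TN3 and 0 elsewhere. A count of 0 allows up to 0.127, 0.0774, 0.0931 and 0.0726 CPM in TN1, TN2, TN3 and HC (3 counts of each area's total).

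The rest of the pathway was described by lists of further genes in the ganglion, where none of them was called by edgeR and all adjusted p-values were 0.505 or above. Of all genes tested there, 28.4% lay above HC and 30% below HC in all 3 TN areas, and the counts of the lists stand beside these shares. Of the 6 receptor genes, 5 lay above HC in all 3 TN areas, with a median log2 fold change of 0.74. Ifngr2, a chain of the interferon gamma receptor, measured 30.2, 52.6 and 43.4 CPM against 22.0 (0.94), and Ifnlr1 had 0.88, while Ifngr1 (0.33) and Ifnar1 (0.13) had the lowest values. Of 9 signalling genes, 4 lay above HC in all 3 areas and 1 below (median 0.51). Irf8, a transcription factor of myeloid cells, measured 2.81, 10.95 and 8.98 CPM against 2.76 (1.46), and the kinase Jak2 19.6, 30.7 and 20.8 against 12.6 (0.91). Stat2 measured 34.5, 34.3, 34.6 and 34.5 CPM in TN1, TN2, TN3 and HC (0.00), and Irf2 had −0.14.

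Of 12 nucleic acid sensing genes, 6 lay above HC in all 3 TN areas (median 0.64), beside the 28.4% of all genes. Tlr7, which senses single-stranded RNA in endosomes, measured 2.97, 4.23 and 4.71 CPM against 1.26 (1.65), and Zbp1, a sensor of left-handed nucleic acid, 2.07, 0.60 and 0.82 against 0.26 (2.11, with 8 HC UMIs). Mavs (0.11) and Dhx58 (−0.04) were lowest. Of 17 interferon gamma-induced genes, 12 lay above HC in all 3 areas and 1 below (median 0.79), beside 28.4% and 30% of all genes. Cxcl11, a chemokine, measured 1.90, 0.77 and 1.63 CPM against 0.26 (2.42), and Ciita, the master regulator of MHC class II genes, 2.23, 3.27 and 1.36 against 0.62 (1.90). The lowest were the immunoproteasome subunit Psmb10 (−0.30) and the peptide-loading protein Tapbp (−0.11).

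The 34 other type I interferon-induced genes split, with 14 above and 8 below HC in all 3 TN areas and a median of 0.21. Slfn2 measured 9.58, 19.4 and 10.5 CPM against 5.12 (1.37). Ifit1 had 13, 0, 0 and 2 UMIs in TN1, TN2, TN3 and HC, too few for a fold. Oasl2, of the oligoadenylate synthetase family, measured 9.91, 6.55 and 6.53 CPM against 21.9 in HC, with no overlap (log2 fold change −1.51, standard error 0.31, adjusted p = 0.505). DESeq2 called it (−1.52, adjusted p = 0.0384). Ifit1bl, the other low gene, measured 0.83, 0.95 and 0.91 CPM against 2.27 (−1.33). Among 4 negative regulators, Ptpn2, a phosphatase of Jak and Stat proteins, measured 9.42, 12.9 and 12.4 CPM against 5.16 (1.17), with Socs1 at 1.15, Usp18 at 0.44 and Pias1 at 0.10. Of the other Ifitm genes, Ifitm6 (1.501) rested on 14, 2, 2 and 5 UMIs in TN1, TN2, TN3 and HC and Ifitm10 (1.40) on 57, 11, 4 and 22, and in both only 1 or 2 TN areas lay above HC. Without TN1, Ifngr2, Irf8, Tlr7, Slfn2 and Ptpn2 were called higher and Oasl2 lower (−1.74). That fit called 6.57% of all ganglion genes, and these genes had been named for the highest or lowest fold changes of their lists.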

How the data were processed

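RNA of tissue sections was captured on 4 Visium capture areas. Per the file headers, the authors ran Space Ranger 1.2.0, and the deposited values are its raw UMI counts, held in 1 matrix of 32623 genes and 6773 spots under tissue. The number after each barcode gives the capture area. Their submission's processing notes also name STAR, and the genome build is not given in the sources used here. Reads of close paralogs may have been dropped or misassigned. Across the 4 areas, 2337 of 3573 barcode sequences occurred in at least 2 areas, because the arrays share a barcode set, and spots were kept apart by area. Median UMIs per spot were 9487 to 30808 by area, and 86 spots of low count were kept, 67 of them in TN3.

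Genes detected in 10 or more spots, 16088 in number, were normalized by SCTransform (Seurat 5.3.0 with sctransform 0.4.2, R 4.3.3) for clustering only. Of the 3000 most variable genes, 25 interferon genes were left out. K-means with 50 starts on 30 principal components divided the spots into 10 clusters. Clusters took the name of the marker list with the highest mean log2(CPM + 5) over the clusters' mean, and clusters led by sensory neuron genes formed the ganglion. Doublets do not apply to spots. UMIs were summed per area and region and compared by the quasi-likelihood test of edgeR 4.0.16 after TMM scaling and filterByExpr, with Benjamini-Hochberg adjustment and a threshold of 0.05, where each area had at least 20 spots. Standard errors were derived from the fold change and its F value. DESeq2 1.42.0 was the second tool. The edgeR fits were tested on simulated data, and DESeq2 was not. The p-values rest on the spread between the TN rats in each fit, which were 3 unless an area was left out. Shares of spots with a UMI were computed on all UMIs and again after thinning to 2000 UMIs. The Ifitm1 share of Ifitm UMIs was computed without thinning. Spot values used Python with numpy 2.4.6, pandas 2.3.3 and scipy 1.17.1.

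The members, the gene lists and the tests were chosen with earlier results of these data known. Of 125 other interferon genes listed, 114 were found by symbol. Beside the members, the text names the 2 tested genes with the highest and the 2 with the lowest ganglion fold change in each list and the 5 most similar genes for each sum. Genes beyond that rule, in the spots with at least 10 Isg15 UMIs and Oasl2 among those called by DESeq2 or without TN1, were named after their values were seen. Alternatives were other size factors, filters, cluster numbers and normalizations, integration of areas, and leaving out each TN area.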

Additional observations from a re-analysis of the deposited data

How the results depend on the processing

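Of 702 recomputed log2 fold changes, 648 kept their direction and side of the threshold, 38 reversed and 16 passed the threshold that they had missed. Over 15 ganglion alternatives Ifitm1 stayed between 1.02 and 2.04, Ifitm3 between 0.44 and 1.18, and Irf7 between 0.32 and 1.12, whereas Ifitm2 ran from −0.054 to 0.65, Bst2 from −0.034 to 0.67, Isg15 from −0.08 to 1.555 (in cluster 6 alone) and Mx1 from −0.12 to 0.65. The number of members called was the same in 47 of 51 cases, and the number of genes called in 30 of 51. Alternatives on blood and bone, on single ganglion clusters and without the spots of at least 10 Isg15 UMIs were chosen after the data had been seen. The cause of the changes listed here was not tested, unless fewer samples or genes entered.

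The calls by DESeq2 numbered 158 over all spots, 118 in the ganglion, 4 in central myelin and 8 in blood and bone. Without a filter on low counts edgeR called 2 genes in the ganglion, 3 in central myelin and 63 in blood and bone, the last with 1 member, Ifitm1 (1.82, adjusted p = 0.0449). With integrated areas it called 1 in blood and bone and 6 in the interaction, and cluster 6 alone and cluster 8 alone gave 6 each. Of 308 regional levels 271 shifted by less than the SD between capture areas, a wide margin, and 37 moved. By the SD between TN areas, 27 of 28 shares of spots moved with thinning.

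Leaving out each TN area in turn gave 0 to 2171 genes and 0 to 3 members over all spots, 0 to 853 genes and 0 to 2 members in the ganglion, 0 to 430 genes and 0 to 3 members in central myelin, 0 to 52 genes in blood and bone and 0 to 113 in the interaction. The highest counts of genes arose without TN1 over all spots, in the ganglion and in central myelin, and without TN3 in blood and bone and in the interaction, where leaving out TN1 gave 111. Fold changes that crossed 0 ranged in the ganglion from −0.054 to 0.65 for Ifitm2, −0.08 to 0.87 for Isg15, −0.12 to 0.41 for Mx1, −0.003 to 0.016 for Stat2, −0.30 to 0.22 for Dhx58, −0.24 to 0.064 for Tapbp, −0.043 to 0.68 for Usp18 and −0.44 to 1.89 for Ifitm10. The range was −0.063 to 0.19 for Mx1 over all spots, −0.012 to 0.26 for Mx1 in blood and bone and −0.75 to 0.21 for Bst2 in central myelin. In the interaction it was −0.96 to 0.028 for Ifitm1, −0.16 to 0.84 for Isg15 and −0.35 to 0.60 for Irf7.

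Other settings reversed these values. Mx1 in blood and bone was −0.01 with DESeq2 size factors, −0.047 with DESeq2, −0.082 with no filter, −0.148 with 8 clusters and −0.027 with all variable genes. In central myelin Bst2 was 0.107 with 12 clusters and 0.102 with integrated areas, and Isg15 was −0.115 with 12 clusters and −0.587 after log-normalization. In the ganglion Bst2 was −0.034 in cluster 8 alone, Ifnar1 −0.003 after log-normalization, Dhx58 0.159 in cluster 6 alone, and Pias1 −0.058 after log-normalization and −0.287 in cluster 8 alone. Stat2 was 0.005 with no filter, 0.024 without mitochondrial, ribosomal protein and hemoglobin genes, 0.001 in spots of at least 500 genes and 1000 UMIs, 0.007 with 12 clusters, 0.031 after log-normalization, 0.002 with all variable genes, 0.119 in cluster 6 and 0.038 in cluster 8. No paired analysis was possible because HC is a single area.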
